A study of Homo sapiens with 6 samples.

Results

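The E2F factors and pocket proteins were followed in K562, a leukemia line of human origin that resembles red cell precursors, after induction of either isoform of C/EBPα, a transcription factor of myeloid differentiation. The genes were chosen by name, as E2F1 to E2F8 together with RB1 and RBL1, and all 10 had a row in each of the 3 deposited tables, among 17066 gene symbols in all. RNA was sequenced from 6 samples, with CTR, CEBPA and P30 cells in 2 replicates each. Each line carries a Tet-inducible PiggyBac transposon, which is empty in CTR cells. It codes for the full-length protein (p42) in CEBPA cells and for the shorter p30 isoform, which lacks the N-terminal part, in P30 cells. The paper's western blot reports both p42 and p30 in the CEBPA line, so CEBPA against P30 is not p42 alone against p30. All cells, the control included, received 200 ng/ml doxycycline for 48 h, and no line without doxycycline was sequenced, so that an isoform's effect and a difference between separately made lines cannot be told apart. Each table gives for a pair of groups 1 FPKM per gene and group, a count of fragments scaled by transcript length and library size, with both replicates pooled. No spread between replicates and no read count is left in these values. All values that follow are therefore descriptions without error, test or p-value, and the reads behind a value cannot be read from them. Where 3 values stand together they are in the order CTR, CEBPA and P30.

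E2F factors bind promoters of genes for DNA replication and cell division. E2F1, E2F2 and E2F3 activate such genes, and are held silent in G1 when the pocket protein pRB, the product of RB1, binds them. E2F4 and E2F5 repress the same genes in resting cells, mostly together with the pocket proteins p107 (RBL1) and p130 (RBL2). E2F6 represses without any pocket protein, as part of a Polycomb complex, and E2F7 and E2F8 are atypical repressors that bind DNA without a DP partner and act late in S phase. Phosphorylation by cyclin-dependent kinases releases E2F from the pocket proteins. Full-length C/EBPα is known to repress E2F-driven transcription through its N-terminal part, and p30 lacks this activity. Several E2F and pocket protein genes are themselves E2F targets, so that their own mRNA levels follow the cycle. The paper reports that doxycycline arrested the proliferation of CEBPA cells but did not affect that of CTR and P30 cells. The part of this difference in growth in the values below was not tested.

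On the GRCh37 build, which the authors aligned to, the 10 genes lie on 9 chromosomes, and E2F1 and RBL1 share chromosome 20. E2F1 (ENSG00000101412) spans chr20:32263283-32274191 on the minus strand, E2F2 (ENSG00000007968) chr1:23832930-23857725 on the minus strand, and E2F3 (ENSG00000112242) chr6:20402110-20493945 on the plus strand. E2F7 (ENSG00000165891) spans chr12:77415028-77459349 and RBL1 (ENSG00000080839) chr20:35624752-35724400, both on the minus strand. E2F4 (ENSG00000205250) spans chr16:67226058-67232821 on the plus strand.

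The promoters of the activators are shown because these genes had lower FPKM in CEBPA cells as a group, with those of RBL1, which holds E2F letters as well, and of E2F4 and E2F7, which do not. Each stretch is the 250 bases before the gene's listed start in RefSeq (GRCh38.p14), placed on GRCh37 by an exact match. Capitals mark 4 forms of the core of the E2F consensus on either strand. The forms searched were TTTCGCG and its variant TTTGGCG, together with TTTCCCG and its variant TTTGCCG.
E2F1: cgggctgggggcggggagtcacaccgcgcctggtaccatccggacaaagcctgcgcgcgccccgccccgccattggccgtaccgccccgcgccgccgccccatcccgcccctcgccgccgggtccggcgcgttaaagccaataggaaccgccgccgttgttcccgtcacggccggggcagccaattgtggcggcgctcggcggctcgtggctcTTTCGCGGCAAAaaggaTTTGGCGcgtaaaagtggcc
E2F2: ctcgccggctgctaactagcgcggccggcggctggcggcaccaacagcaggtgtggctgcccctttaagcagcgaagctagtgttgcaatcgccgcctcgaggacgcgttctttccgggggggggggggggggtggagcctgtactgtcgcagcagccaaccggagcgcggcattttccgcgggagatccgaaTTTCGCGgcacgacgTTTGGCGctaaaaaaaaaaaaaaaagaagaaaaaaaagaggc
E2F3: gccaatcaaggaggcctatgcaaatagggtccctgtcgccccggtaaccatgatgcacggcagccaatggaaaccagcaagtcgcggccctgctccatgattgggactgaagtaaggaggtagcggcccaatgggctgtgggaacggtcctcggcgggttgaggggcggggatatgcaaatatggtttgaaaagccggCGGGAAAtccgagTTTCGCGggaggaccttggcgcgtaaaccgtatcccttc
RBL1: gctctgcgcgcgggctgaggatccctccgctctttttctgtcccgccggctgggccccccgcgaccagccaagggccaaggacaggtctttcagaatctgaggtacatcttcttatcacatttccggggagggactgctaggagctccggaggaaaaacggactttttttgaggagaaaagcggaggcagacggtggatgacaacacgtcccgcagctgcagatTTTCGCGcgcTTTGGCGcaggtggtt
E2F4: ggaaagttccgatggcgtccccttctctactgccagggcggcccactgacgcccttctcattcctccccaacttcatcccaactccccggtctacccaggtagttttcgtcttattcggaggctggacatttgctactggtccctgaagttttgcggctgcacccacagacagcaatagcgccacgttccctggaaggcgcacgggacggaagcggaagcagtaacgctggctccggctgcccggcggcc
E2F7: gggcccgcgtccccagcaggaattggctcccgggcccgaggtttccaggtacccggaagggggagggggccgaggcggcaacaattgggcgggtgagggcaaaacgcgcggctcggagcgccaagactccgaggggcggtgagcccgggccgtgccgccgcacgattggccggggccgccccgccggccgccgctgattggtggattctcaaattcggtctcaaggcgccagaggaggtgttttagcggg
The stretches lie at chr20:32274192-32274441 (E2F1, minus strand), chr1:23857726-23857975 (E2F2, minus strand), chr6:20401860-20402109 (E2F3, plus strand), chr20:35724401-35724650 (RBL1, minus strand), chr16:67225808-67226057 (E2F4, plus strand) and chr12:77459350-77459599 (E2F7, minus strand). Each ends at the base before the start of its gene in the GRCh37 annotation.

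In the promoter of E2F1, TTTCGCG stood 37 to 31 bases and TTTGGCG 20 to 14 bases before the start. The former overlapped TTTGCCG on the opposite strand, 32 to 26 bases before the start. E2F2 held the same pair of letters in the same order and direction, TTTCGCG from 57 to 51 and TTTGGCG from 42 to 36 bases before the start, and so did RBL1, from 26 to 20 and from 16 to 10. E2F3 held TTTCGCG, from 39 to 33 bases, and TTTCCCG on the opposite strand, from 52 to 46. E2F6 held TTTCCCG from 183 to 177 and from 78 to 72 bases before its start. No such letters occurred in the stretches of E2F4 and E2F7. Of the 35116 stretches of this length in the RefSeq table, 7.33% held at least 1 of the 4 forms and 0.496% at least 2. Only 13 stretches, from 13 genes, held both TTTCGCG and TTTGGCG on any strand, and E2F1, E2F2 and RBL1 are 3 of these genes. The E2F3 table entry for a second start, 1735 bases inside the gene, held none, and the stretch listed for RB1 starts 172706 bases inside the gene and was not considered. E2F5 and E2F8 are named only. The C/EBP letters TTGCGCAA, TTGCACAA and TTGCGTAA, searched on both strands, occurred in 0.931% of all stretches and in none of those listed for E2F1, E2F2, E2F3, E2F4, E2F6, E2F7 and RBL1. A CCAAT box, found in 32.0% of all stretches on either strand, occurred 3 times in E2F1 and 4 times each in E2F3 and E2F7. These matches describe letters and not bound sites.

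All 10 genes exceeded 1 FPKM in every group. The lowest level was 5.28 FPKM in CTR cells (E2F7), 4.20 in CEBPA cells (E2F8) and 5.80 in P30 cells (E2F5). The median level was 15.2, 13.1 and 16.0 FPKM. E2F4 was the highest in all 3 groups and stood at or above 90.1%, 88.1% and 88.7% of all rows listed for them. In CTR and P30 cells it was followed by E2F3, E2F1, E2F6, RB1, E2F2, E2F8 and RBL1 in the same order, and E2F5 and E2F7 were the lowest. In CEBPA cells E2F7 was at place 3 and E2F5 at place 6, while E2F2 and E2F8 were last. Which neighbours in these orders differ beyond replicate error cannot be said from pooled values.

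**Figure D1:**
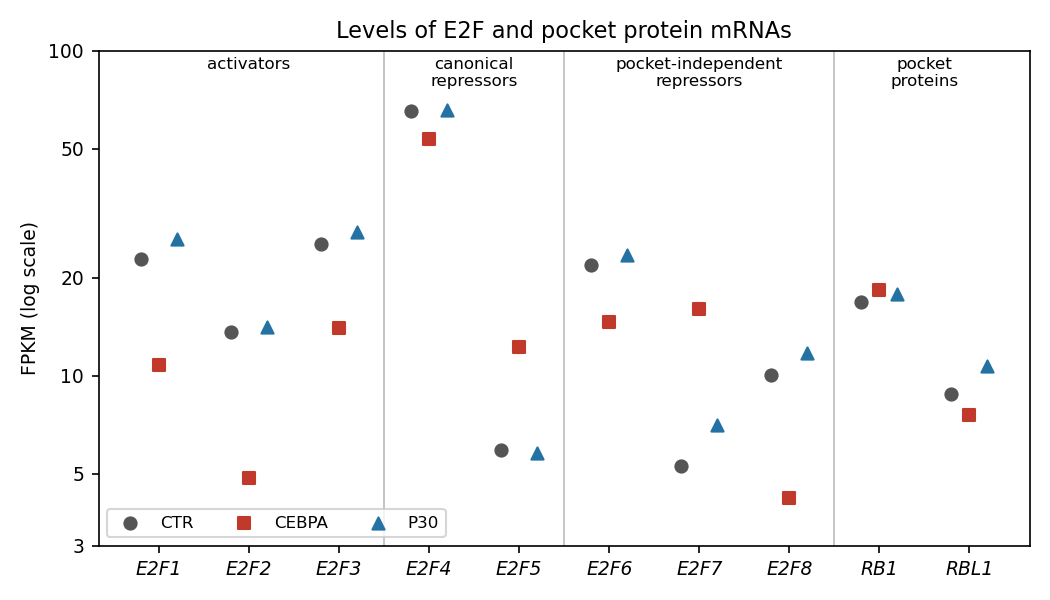
FPKM (log scale) of the 8 E2F genes and of RB1 and RBL1 in CTR (circles), CEBPA (squares) and P30 (triangles), 1 pooled value per gene and group and no error bars. CTR and P30 lie close together for every gene, and CEBPA lies below them for E2F1, E2F2, E2F3, E2F6 and E2F8, by less for E2F4 and RBL1, and above them for E2F5 and E2F7.

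To see these genes with and without the full-length protein, CEBPA was compared with CTR. The change of a gene is its difference in log2(FPKM + 1), which makes changes of low genes look smaller than they are. At least 2-fold means a change of 1 or more on this scale. The activators E2F1 and E2F2 and the atypical repressor E2F8 were at least 2-fold lower in CEBPA cells, and the atypical repressor E2F7 was at least 2-fold higher. These are 3 of 10 genes lower (30%) and 1 of 10 higher (10%). Among all 13673 genes over 1 FPKM in CTR or CEBPA, 6.92% were at least 2-fold lower and 14.0% at least 2-fold higher. With a limit of 1.5-fold, 4 of 10 were lower (E2F3 was added) and 2 higher (E2F5 was added), where 18.6% and 24.0% of all genes were so. The median change of the 10 genes was -0.42 on the log2 scale and that of all genes -0.01. Fewer cells of a type and less RNA per cell cannot be told apart in these bulk samples.

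E2F1, the best known partner of pRB, had 22.8, 10.8 and 26.4 FPKM. Its log2 change in CEBPA vs CTR was -1.01, just past the 2-fold limit, and 6.71% of all genes compared had a change as low. E2F2 had 13.6, 4.86 and 14.1 FPKM, and its change of -1.32 was the lowest of the 10, with 3.06% of genes as low. E2F3 had 25.5, 14.0 and 27.7 FPKM and a change of -0.82, short of 2-fold. All 3 activators were thus lower in CEBPA than in either other group. Their summed level was 61.9, 29.7 and 68.2 FPKM.

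Of the canonical repressors, E2F4 had 65.3, 53.4 and 65.6 FPKM. Its change of -0.29 in CEBPA vs CTR is within the middle of all genes, of which 33.7% were as low. E2F5 was higher in CEBPA cells, with 5.93, 12.3 and 5.80 FPKM and a log2 change of 0.94, just short of the 2-fold limit. A change as high was found in 15.4% of all genes. The E2F5 gene overlaps the oppositely oriented protein coding gene RBIS over 3105 bp of the GRCh37 annotation. The kit was stranded and TopHat was run with its default parameters, and no strand setting for the alignment or the estimates is named in the sources used here, so that reads of both genes may not have been told apart.

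The pocket-independent repressors differed in direction. E2F6 had 22.0, 14.7 and 23.6 FPKM, a change of -0.55 in CEBPA vs CTR. E2F7 had 5.28, 16.1 and 7.07 FPKM, and its change of 1.44 was the highest of the 10. A change as high was found in 7.83% of all genes. E2F8, the closest relative of E2F7, had 10.0, 4.20 and 11.7 FPKM and a change of -1.08, with 5.68% of genes as low. The ratio of E2F7 to E2F8 was therefore 0.527, 3.83 and 0.603. The whole of E2F8 lies within the oppositely oriented lncRNA CSRP3-AS1 in the annotation. For E2F8 as for E2F5, reads of both genes may not have been told apart.

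The pocket proteins differed little. RB1 had 16.9, 18.3 and 17.9 FPKM, with a change of 0.11 in CEBPA vs CTR. RBL1 had 8.77, 7.59 and 10.8 FPKM, with a change of -0.19. Among all genes, 43.8% were as high as RB1 and 39.6% as low as RBL1, so that both are near the middle of the distribution. RB1 overlaps LPAR6 and RCBTB2, both on the opposite strand, in the annotation, so reads may not have been told apart there either. The promoter letters shared by E2F1, E2F2 and RBL1 did not go with one size of change: of the 13 genes with both TTTCGCG and TTTGGCG, 9 were compared, all 9 were below 0, and 3 were at least 2-fold lower. The 9 include E2F1, E2F2 and RBL1 themselves, and E2F1 and E2F2 are 2 of the 3 lower genes, so that these counts are no test of the letters. Among all genes, 50.5% were below 0 and 6.92% at least 2-fold lower. The median of the 9 was -0.47. The lowest was SLC30A3, a zinc transporter gene, with 6.31 FPKM in CTR, 1.16 in CEBPA and a change of -1.76. Of genes for replication there were POLA2, a subunit of DNA polymerase α, with a change of -0.47, and MCM6, a subunit of the replicative helicase, with -0.46. The mismatch repair gene MSH3 was at -0.14. These genes were looked at after the values had been seen. Of 98 genes with at least 2 matches to any of the 4 forms, 59.2% were below 0, 8.16% were 2-fold lower and 7.14% 2-fold higher. Genes with at least 1 of the 4 forms of the E2F letters were 2-fold lower in 5.67% of 1182 cases, and genes without in 7.09% of 7363.

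The symbol RBL1 stood in each table for 2 rows, and the one taken here was chosen by its place and not by its values. The rows of the tables run along the chromosomes by strand. The row taken lies among genes of the minus strand of chromosome 20 (17 of 17 neighbours that could be placed), where RBL1 is. The other lies among genes of the plus strand (19 of 19) and had 0.511, 0.562 and 0.606 FPKM. A lncRNA, ENSG00000269846, overlaps RBL1 on the plus strand over 213 bp of the annotation. Whether it is this row was not tested.

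P30 was compared with CTR to see the same genes with the short isoform. No member, 0 of 10, reached 2-fold in either direction, where 1.02% of 12395 genes were that much higher and 0.613% that much lower. None reached 1.5-fold either, as 2.69% of all genes did upward and 2.63% downward. The changes ran from -0.03 in E2F5 to 0.36 in E2F7, with a median of 0.11 against 0.02 for all genes. E2F7 was the gene nearest to the edge of the distribution, with 6.91% of all genes as high, followed by RBL1 with a change of 0.27 and 11.9%. E2F8 and E2F1 had changes of 0.21 and 0.20, and E2F4 one of 0.01. In all, 9 of 10 genes had a higher FPKM in P30 than in CTR, as had 55.1% of all genes, each by an amount that pooled values cannot set apart from replicate error. The scaled median absolute deviation of the change over all genes was 0.20 in this comparison and 0.73 in CEBPA vs CTR.

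CEBPA and P30 were compared directly as well. This comparison uses the same CEBPA libraries as that against CTR and is no independent repeat of it. E2F2 (-1.37), E2F8 (-1.29) and E2F1 (-1.21) were at least 2-fold lower in CEBPA than in P30 and E2F7 (1.08) at least 2-fold higher, where 5.79% of 13569 genes were lower and 13.1% higher. At 1.5-fold these counts were 5 lower and 2 higher, against 17.8% and 22.3% of all genes. E2F3 had -0.94 and E2F5 0.96, both past 1.5-fold and short of 2-fold on this scale. E2F6 had -0.65, RBL1 -0.45, E2F4 -0.29 and RB1 0.03. The change of E2F1 was as low in 2.96% of all genes, that of E2F2 in 2.03% and that of E2F8 in 2.45%.

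**Figure D2:**
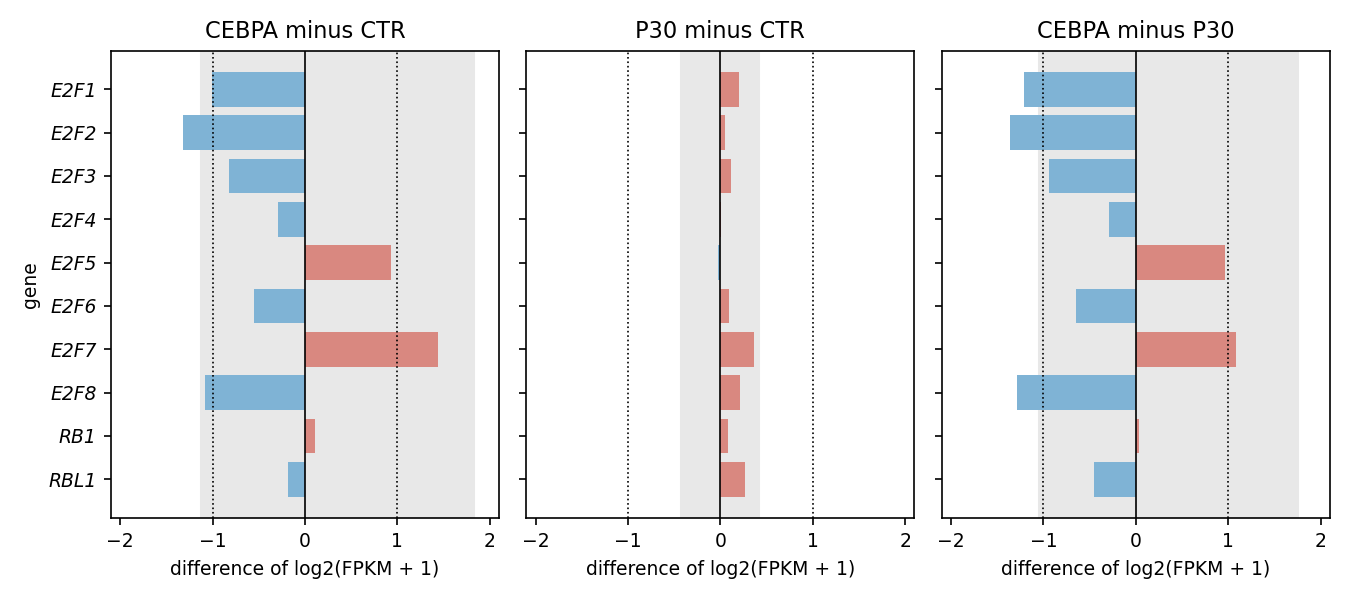
Differences of log2(FPKM + 1) of the 10 genes in CEBPA minus CTR, P30 minus CTR and CEBPA minus P30 (bars, 1 pooled value each). Dotted lines mark 2-fold, and the grey band holds the central part of all genes compared, from the 5th to the 95th percentile. E2F2 lies outside the band in CEBPA minus CTR, E2F1, E2F2 and E2F8 do so in CEBPA minus P30, and all P30 minus CTR bars lie within it.

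Since FPKM is per transcript length, the members can be set side by side as shares of the E2F mRNA in a group. The 8 E2F genes summed to 170, 130 and 182 FPKM. Activators made up 36.3%, 22.8% and 37.5% of this sum. The canonical repressors E2F4 and E2F5 made up 41.8%, 50.4% and 39.2%, and the pocket-independent repressors 21.9%, 26.8% and 23.3%. E2F4 alone held 38.3% in CTR and 41.0% in CEBPA. Within the last class E2F7 went from 3.10% of the sum in CTR to 12.4% in CEBPA, and E2F8 from 5.88% to 3.23%. These shares are of mRNA and say nothing of protein or of phosphorylation.

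**Figure D3:**
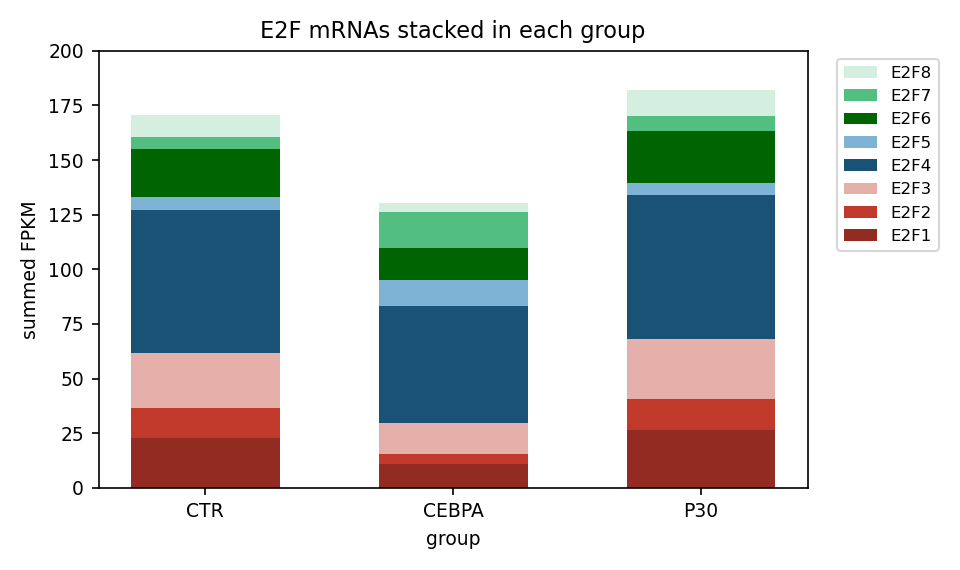
Summed FPKM of E2F1 to E2F8 in CTR, CEBPA and P30, stacked by gene (reds for the activators, blues for the canonical repressors, greens for the pocket-independent repressors). The red part is 29.7 FPKM in CEBPA, against 61.9 in CTR and 68.2 in P30.

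The balance of activators and pocket proteins was described with RBL2, the third pocket protein, which accumulates in resting cells. RBL2 had 26.9, 43.9 and 32.4 FPKM, a change of 0.68 in CEBPA vs CTR and of 0.26 in P30 vs CTR. RBL2 thus made up 51.2%, 62.9% and 53.1% of the summed FPKM of the pocket proteins. Its ratio to RBL1 was 3.07, 5.78 and 3.02. The summed FPKM of the activators divided by that of RB1, RBL1 and RBL2 was 1.18, 0.425 and 1.12. The dimer partner TFDP1 had 72.5, 45.1 and 73.6 FPKM, a change of -0.67 in CEBPA vs CTR. TFDP3 was below 1 FPKM in every group, and TFDP2 was not analysed here.

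Other genes of the pathway were taken from lists written from general knowledge. The MuvB core forms the DREAM complex with E2F4 and p130 in resting cells, and with B-MYB and FOXM1 it activates mitotic genes in cycling cells. The list of MuvB, B-MYB and FOXM1 had 6 of 7 genes analysed. MYBL2, the gene of B-MYB and an E2F target, had 74.3, 26.2 and 79.6 FPKM, a change of -1.47 in CEBPA vs CTR. LIN54, the DNA-binding subunit of MuvB, had 7.66, 20.7 and 9.18 FPKM, a change of 1.33. The other 4 genes were within 2-fold, so that 16.7% of the list was lower and 16.7% higher, against 6.92% and 14.0% of all genes. Of the 9 cyclins and kinases that phosphorylate pocket proteins, CDK2 (-1.17) and CCNE1 (-1.05) were at least 2-fold lower in CEBPA vs CTR and 0 were higher, against 6.92% and 14.0% of all genes, with a median of -0.65. In P30 vs CTR, 0 of the 8 compared reached 2-fold, as did 1.02% of all genes upward and 0.613% downward, and CCND3, the gene of cyclin D3, had the highest change, 0.50, with 183, 99.7 and 259 FPKM. Of 7 CDK inhibitors listed, 5 were analysed, without CDKN2A and CDKN2B. Of the 5, CDKN1C was 2-fold lower in CEBPA vs CTR (-1.46), which is 20%, against 6.92% of all genes. CDKN1A, the gene of p21, had the highest change, 0.70, and 0 of 5 were 2-fold higher, against 14.0%.

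The G1/S targets are switched on by E2F activators before replication. Of 36 targets analysed of 38 listed, 6 were at least 2-fold lower in CEBPA vs CTR (16.7%, against 6.92% of all genes) and 1 was at least 2-fold higher (2.78%, against 14.0%), and the others stayed within 2-fold. In all, 32 of 36 were below 0, as were 50.5% of all genes. Their median change was -0.49. In the licensing and initiation group all 13 genes were below 0 and CDT1, a helicase loading factor, was the lowest, with 55.2, 20.6 and 72.0 FPKM (-1.38). In the group of polymerases and nucleotide supply TK1 (-1.41) and TYMS (-1.33), for thymidine kinase and thymidylate synthase, were the lowest, and POLE and LIG1 were also past 2-fold. POLA1, the catalytic subunit of DNA polymerase α, was the only one of the 36 past 2-fold upward, with 13.4, 56.0 and 15.6 FPKM, a change of 1.99. The other 3 targets above 0 were RRM1 (0.54), ATAD2 (0.07) and DUT (0.01). In the group of cycle control, repair and chromatin only UHRF1 (-1.15) was 2-fold lower, and the median was -0.23.

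In P30 vs CTR, 0 of the 36 G1/S targets reached 2-fold, where the shares of all genes, 1.02% and 0.613%, also come to less than 1 gene in a list of this size. Of the 36, 34 were above 0, as were 55.1% of all genes, and the median was 0.18. The highest changes were those of BRCA1 (0.45) and CDT1 (0.38). In CEBPA vs P30, 11 of 36 were at least 2-fold lower (30.6%, against 5.79% of all genes) and 1 was higher (2.78%, against 13.1%). For comparison, the 22 G2/M genes bound by DREAM had 2 members at least 2-fold lower in CEBPA vs CTR, AURKB (-1.26) and CENPF (-1.20), with 0 higher and a median of -0.31. These are 9.09% lower and 0% higher, against 6.92% and 14.0% of all genes. KIF20A had the highest change of this list, 0.84, with 27.6, 50.3 and 28.3 FPKM. In P30 vs CTR the median of the G2/M list was 0.04. There, 0 of 22 were past 2-fold, as were 1.02% of all genes upward and 0.613% downward.

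**Figure D4:**
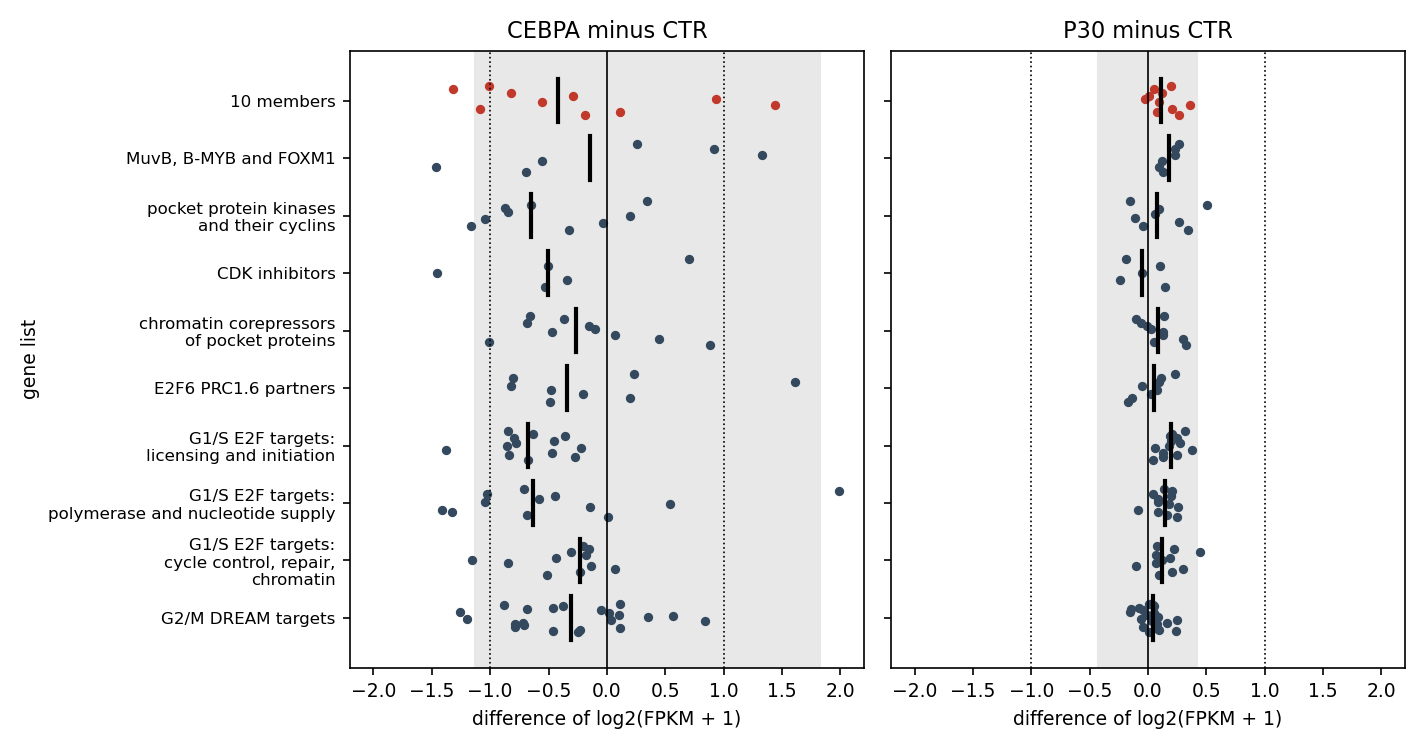
Differences of log2(FPKM + 1) for each gene of the 10 members and of 9 pathway lists (points) with the list's median (black bar), in CEBPA minus CTR and P30 minus CTR. Dotted lines mark 2-fold and grey bands hold all genes from the 5th to the 95th percentile. In CEBPA minus CTR the medians of all lists drawn lie below 0, and in P30 minus CTR all points lie between the dotted lines. The E2F1 apoptotic targets, with a median of 0.26 in CEBPA minus CTR, are not drawn.

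The labelled cell type was checked with markers. Of 8 erythroid markers analysed of 11 listed, GATA1 had 185, 53.1 and 193 FPKM. In CEBPA vs CTR, 6 of 8 were at least 2-fold lower (75%, against 6.92% of all genes). The erythroid markers analysed summed to 1977, 816 and 1452 FPKM. The 8 granulocyte markers analysed of 11 listed, without MPO, ELANE and FCGR3B, summed to 52.8, 11820 and 93.8 FPKM. S100A8 and S100A9 had 3731 and 4623 FPKM of this sum in CEBPA cells. Of the 8, 7 were at least 2-fold higher in CEBPA vs CTR (87.5%, against 14.0% of all genes). The exception, ITGAM, had 2.59, 2.43 and 14.3 FPKM and was thus highest in P30 cells. In P30 vs CTR, 5 of the 7 granulocyte markers compared were 2-fold higher (71.4%, against 1.02% of all genes). Of the erythroid markers, 1 of 8, HBG1, was 2-fold lower (12.5%, against 0.613%), and its reads can be shared with its near-identical copy HBG2. The summed level of the 4 lymphocyte markers analysed of 6 listed lay between 7.52 and 15.0 FPKM. That of the 4 markers of stroma and endothelium analysed, also of 6 listed, lay between 4.01 and 5.20 FPKM. No marker analysed in the 4 lists was at 0, and the listed markers not analysed have no value here. These shifts move with the lower activator E2F mRNAs in CEBPA cells, and their part in them was not tested. CEBPA itself was not analysed here.

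The pattern of E2F7, the member with the largest change in CEBPA vs CTR, was compared with those of 4494 genes within 1 of its mean log2(FPKM + 1). Likeness was the distance between the pairs of changes that CEBPA and P30 cells showed against CTR. The 5 nearest genes were TDRD7, TRIM23, SLC2A13, ZBTB41 and CCNG2, at distances from 0.0267 to 0.0593. CCNG2, the gene of cyclin G2, had 5.79, 17.7 and 8.07 FPKM.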

How the data were processed

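RNA-seq of 6 K562 samples, 2 replicates each of CTR, CEBPA and P30, was used as the authors deposited it. The authors estimated FPKM with Cuffdiff, from reads that TopHat had aligned to hg19 and Cufflinks had assembled on a Gencode annotation. The submitters' processing notes also name CASAVA 1.4. Each deposited table gives 1 FPKM per gene and group with the replicates pooled. Sequencing took 2 runs on different instruments, and the run of each replicate is not given in the sources used here. The values hold neither read counts nor a spread between replicates, so no interval is given, and depth per sample is unknown from them.

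The change of a gene was taken as its difference in log2(FPKM + 1), for genes over 1 FPKM in at least 1 group of a pair, called at 2-fold. Each row counted as 1 gene. A group's FPKM was identical in both of its tables for every symbol that occurred once. Named genes are the members, RBL2 and the DP partners, the highest and lowest changes of each list, and the nearest patterns to E2F7, and the genes sharing promoter letters were named later. The members, gene lists and promoter letters were chosen with earlier results of these data known. Alternatives were a pseudocount of 0.1, centring on the median, no filter, a filter at 5 FPKM, a 1.5-fold limit, summed rows and shares without E2F4. The calling step was checked on simulated data with planted changes well past the limit. That checks the calculation and not the calls made here. Gene positions come from Gencode lifted to GRCh37. Python 3.11.15, numpy 2.4.6, pandas 2.3.3 and matplotlib 3.10.9 were used.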

Additional observations from a re-analysis of the deposited data

How the results depend on the processing

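No paired analysis was possible because each group has a single value with its replicates merged. The replicate block and leaving out each replicate could not be run for the same reason. A log2 value was taken as moved past 0.20, the spread of P30 vs CTR over all genes, a count past 1.5 times and a share past 5 percentage points, which are working limits. Alternatives gave 183 values for 66 results, of which 175 moved less than these limits, 8 moved more, and 0 reversed a call. A reversal was not possible here, since a pseudocount keeps the direction and the medians used for centring were only -0.01, 0.02 and -0.04. The filters could not alter the members either, as each was over 5 FPKM in at least 1 group of every pair. These values are therefore no measure of replicate error. With a pseudocount of 0.1, or with a limit of 1.5-fold, E2F5 joined E2F7, so that 2 members were higher in CEBPA, both against CTR and against P30. With 1.5-fold, 5 members were lower in CEBPA vs P30. Without E2F4 the activators held 58.9%, 38.6% and 58.6% of the E2F sum of CTR, CEBPA and P30. Summing both RBL1 rows gave 9.28, 8.15 and 11.4 FPKM for CTR, CEBPA and P30.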

Other observations

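E2F1 can also drive apoptotic genes. Of 7 such targets, 1 was at least 2-fold higher in CEBPA vs CTR (14.3%, near the 14.0% of all genes). This was APAF1, the scaffold of the apoptosome, with 6.67, 16.7 and 8.59 FPKM in the order CTR, CEBPA and P30. BBC3, the gene of PUMA, was at least 2-fold lower, with 9.98, 3.67 and 9.22 FPKM (14.3% of the list, against 6.92% of all genes). TP73 had 2.54, 0.871 and 2.49 FPKM. The median change of the list was 0.26 in CEBPA vs CTR. It was 0.13 in P30 vs CTR, where 0 of 7 were past 2-fold, as were 1.02% of all genes upward and 0.613% downward.

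The partners of E2F6 in its Polycomb complex were within 2-fold in CEBPA vs CTR for 7 of the 8 genes analysed of 9 listed. The exception was PCGF6, its defining RING finger subunit, with 10.7, 34.9 and 11.5 FPKM, a change of 1.62. This is 12.5% of the partners higher and 0% lower, against 14.0% and 6.92% of all genes. MAX (-0.80) and L3MBTL2 (-0.82) were the lowest. Of 10 listed germline genes that E2F6 is known to repress, 6 were analysed and 3 were over 1 FPKM. SYCE2, a synaptonemal complex gene, had 2.98, 11.8 and 2.79 FPKM in CTR, CEBPA and P30, a change of 1.68 in CEBPA vs CTR. TDRKH had 10.4, 4.43 and 8.44 FPKM, a change of -1.07, and TUBA3C stayed at or below 1.15 FPKM. Of the 3, 1 was thus at least 2-fold higher and 1 lower (33.3% each), against 14.0% and 6.92% of all genes. TUBA3C has near-identical copies, so that its value is uncertain. Of 10 chromatin corepressors of pocket proteins, SMARCA4 (-1.01) was 2-fold lower in CEBPA vs CTR (10%, against 6.92% of all genes). SMARCA2 (0.89) was the highest, and 0 were 2-fold higher, against 14.0% of all genes.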
